A study of Homo sapiens with 4 samples.

Results

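The chemokine CXCL8 (interleukin-8), its receptor genes CXCR1 and CXCR2, and the chemokine genes CXCL1, CXCL2, CXCL3, CXCL5, CXCL6, CCL2 and CCL20 were followed in BEAS-2B, a virally immortalised human bronchial epithelial cell line. These 10 genes, of 39634 with values in the count table, were taken by symbol, and each matched 1 row. CXCR1 was picked because its counts rose from a low level in these same libraries. Its values are therefore a description without a test, and the other genes were grouped around it with earlier results of these data known. Polyadenylated RNA was sequenced from 2 libraries of cells with a control short hairpin RNA (shControl) and 2 libraries of cells with a hairpin against Fer (shFer), the cytoplasmic tyrosine kinase whose depletion the series addresses. All 4 came from the same line grown in N2B27, a defined medium, and differed by the labels only in the hairpin. The sources used here do not give the hairpin sequences or say how many cell populations were made.

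Chemokines are small secreted proteins that guide migrating leukocytes. CXCL8, CXCL1, CXCL2, CXCL3, CXCL5 and CXCL6 are the glutamate-leucine-arginine type of CXC chemokine, which attracts neutrophils and is released by airway epithelium on infection or injury. They act through the G protein-coupled receptors CXCR1 and CXCR2, which are best known from neutrophils. CXCR2 binds all of these ligands, whereas CXCR1 responds mainly to CXCL8 and CXCL6. CCL2 attracts monocytes through CCR2, and CCL20 attracts cells that carry CCR6. Transcription of the CXC ligand genes is induced through NF-kB, with AP-1 as a further factor at CXCL8, and several of their mRNAs are short-lived because of AU-rich elements.

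The 6 CXC ligand genes lie together on chromosome 4 within 358.8 kb, and CXCR1 and CXCR2 lie within 41.7 kb on chromosome 2. CCL2 is on chromosome 17 and CCL20 on chromosome 2. Promoter sequences from RefSeq (GRCh38.p14, 250 bases before to 50 bases after the start site) were found for 9 of the 10 genes. The CXCL8 and CXCR1 promoters are shown whole because these 2 genes had the largest fold changes of a ligand above 5 CPM (counts scaled to library size) and of a receptor. Capitals mark matches to GGAANTTCC (NF-kB-like), TGANTCA (AP-1-like) and TATAAA, each searched on both strands.
CXCL8, chr4:73740319-73740618 (plus strand): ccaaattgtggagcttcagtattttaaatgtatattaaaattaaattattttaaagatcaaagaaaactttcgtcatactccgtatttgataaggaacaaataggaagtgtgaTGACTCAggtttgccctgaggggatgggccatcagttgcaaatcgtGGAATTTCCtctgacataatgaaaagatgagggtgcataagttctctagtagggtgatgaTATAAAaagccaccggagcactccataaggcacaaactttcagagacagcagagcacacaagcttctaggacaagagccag
CXCR1, chr2:218166913-218167212 (minus strand): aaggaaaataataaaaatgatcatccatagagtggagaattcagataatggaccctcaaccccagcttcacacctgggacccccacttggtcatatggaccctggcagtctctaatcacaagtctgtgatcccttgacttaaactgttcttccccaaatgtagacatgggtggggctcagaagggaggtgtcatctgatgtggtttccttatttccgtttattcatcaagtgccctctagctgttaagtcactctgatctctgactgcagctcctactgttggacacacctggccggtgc
In CXCL8 the AP-1-like match began 137 bases before the start site, the NF-kB-like match 91 bases before it and the TATAAA match 31 bases before it. These 3 letter patterns do not occur in the CXCR1 window, which says nothing of the factors themselves. The next lines show bases 100 to 61 before the start site of the other CXC ligands, because all of them hold an NF-kB-like match there.
CXCL1, chr4:73869293-73869332 (plus strand): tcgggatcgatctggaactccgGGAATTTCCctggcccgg
CXCL2, chr4:74099256-74099295 (minus strand): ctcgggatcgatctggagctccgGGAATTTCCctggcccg
CXCL3, chr4:74038750-74038789 (minus strand): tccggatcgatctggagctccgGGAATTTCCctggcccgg
CXCL5, chr4:73998738-73998777 (minus strand): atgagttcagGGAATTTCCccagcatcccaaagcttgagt
CXCL6, chr4:73836578-73836617 (plus strand): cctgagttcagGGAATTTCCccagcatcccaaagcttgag
GGAANTTCC was found in 6 of the 9 promoters, those of the 6 CXC ligands, and in 0.965% of 35116 promoters of the same length. The 3 patterns did not overlap one another in these promoters. TGANTCA was found in CXCL8 alone of the 9 (7.71% of all promoters), and TATAAA in CXCL8 and CCL20 (11.5%). The AU-rich nonamer TTATTTATT occurred in the longest coding transcript of CXCL2 (5 copies), CXCL1 (3), CXCL8 (1) and CXCL3 (1) and in none of the other 6 genes, against 8.7% of 19684 protein-coding genes with at least 1 copy in GENCODE release 29.

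The libraries held 21422976 to 25169713 counts. FER mRNA was not lower under the knockdown label: it had 334 and 459 counts in control and 404 and 535 in the other group, and its log2 fold change was 0.02 with a 95% interval of -0.37 to 0.40 (adjusted p = 0.976 by edgeR's quasi-likelihood test). Directions are therefore given by label, shFer over control. Nothing states that replicates are separate cultures, and the spread behind each p-value may thus be technical. Genes of the mitochondrial chromosome took 16.9% and 19.4% of counts in control and 9.62% and 9.37% in the libraries labelled shFer. With that chromosome left out, the log2 fold changes of CXCL8 (0.81) and CXCR1 (2.31) were nearly the same. Of 15336 genes tested, 43 were called higher and 56 lower at an adjusted p under 0.05, or 0.646% in all, and with library totals in place of TMM scaling 396 were higher and 47 lower, and the all-gene median (log2) moved from 0.01 to 0.18. Because RNA was taken from bulk cultures, fewer expressing cells and less RNA per cell cannot be told apart.

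Expressed per kilobase of the gene length in the deposited table, CCL2 and CXCL1 were the most abundant of the 10 mRNAs and CCL20 the least. CCL2 stood at 64.1 and 68.1 CPM per kb in control and at 65.0 and 60.1 under the knockdown label. CXCL1 followed at 25.3 ± 0.378 against 30.6 ± 2.31 CPM per kb (mean ± SD, n = 2 each), then CXCL8 at 5.64 and 8.30 against 10.9 and 13.6, and CXCL2 at 3.32 and 5.51 against 5.51 and 4.74. These 4 ligands kept that order in all 4 libraries. CXCR2, CXCL6 and CXCL3 lay between 0.507 and 1.02 CPM per kb in control and held that order in both control libraries, with ranges that overlap between the genes. CXCR1 ranked 8 of 10 in both control libraries (0.378 and 0.319 CPM per kb) and 5 of 10 in both libraries labelled shFer (1.86 and 1.62), where CXCL6 in replicate 1 was close to it at 1.81. CXCL5 stayed under 0.28 CPM per kb, and CCL20 rested on 1 to 3 counts per library.

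**Figure D1:**
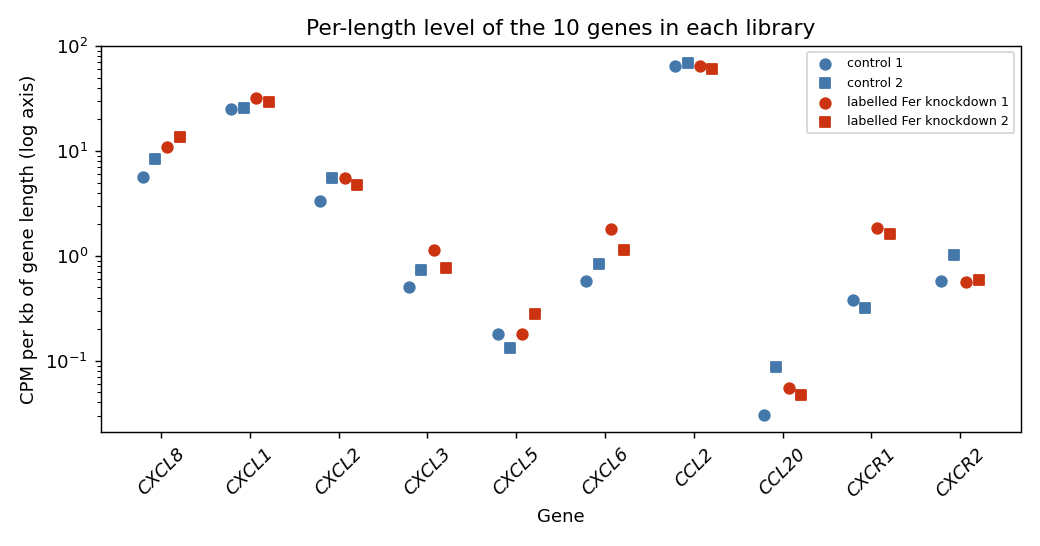
Level of each of the 10 genes per kilobase of gene length (log axis, CPM per kb) in the 2 control libraries (blue) and the 2 libraries labelled shFer (red), with replicate 1 as circles and replicate 2 as squares. The red CXCR1 points (1.86 and 1.62) sit above the blue ones (0.378 and 0.319), and the CCL2 points of all libraries lie between 60.1 and 68.1.

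CXCL8, the chief neutrophil attractant of the set, was higher in both libraries labelled shFer than in both controls but missed the threshold. It had 258 and 403 counts in control and 555 and 808 under the knockdown label, which is 12.6 and 18.6 CPM against 24.4 and 30.4 CPM. The groups did not overlap, and within each group replicate 2 was the higher library. The means were 15.6 ± 4.22 and 27.4 ± 4.23 CPM (SD, n = 2 each), and the log2 fold change was 0.81 with a 95% interval of 0.36 to 1.27 (adjusted p = 0.0924 in edgeR's quasi-likelihood test). A log2 fold change at least as large was found in 3.48% of all tested genes. The same data passed the threshold in DESeq2 (adjusted p = 0.0173). They also passed in edgeR with library totals alone (0.0434), a scaling that put the all-gene median at 0.18. The log2 fold change was 0.56 without control replicate 1, 1.10 without control replicate 2, 0.96 without replicate 1 of the libraries labelled shFer and 0.64 without replicate 2, where the adjusted p was 0.767. Over all alternatives the adjusted p of CXCL8 ran from 8.25e-14 to 0.767.

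CXCL1, CXCL2 and CXCL3, the growth-regulated oncogene chemokines that signal through CXCR2, did not pass the test. CXCL1 had 697 and 755 counts in control and 997 and 1048 under the knockdown label, or 34.1 and 34.8 CPM against 43.9 and 39.5 CPM. The groups did not overlap, and the difference was a log2 fold change of 0.27 with a 95% interval of -0.03 to 0.58 (adjusted p = 0.333 in edgeR's quasi-likelihood test). CXCL2 had 4.65 and 7.70 CPM in control and 7.71 and 6.63 CPM in the other group. Its control replicate 1 was the lowest of the 4 libraries while control replicate 2 matched the highest, so the groups overlapped (log2 fold change 0.21, adjusted p = 0.723 in edgeR). Without control replicate 1 the CXCL2 value turned to -0.11. CXCL3 had 23 and 35 counts in control and 57 and 45 counts under the knockdown label, or 1.12 and 1.61 against 2.51 and 1.69 CPM, with a log2 fold change of 0.61 and a wide 95% interval of -0.23 to 1.44 (adjusted p = 0.442 in edgeR). It was at 0.30 without shFer replicate 1 and at 0.37 without control replicate 1.

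The coding sequences of these 3 genes are 90.7% to 94.4% identical. Their whole transcripts share longest exact runs of 55 to 97 bases, so reads could have been split between the genes. Their sum, which does not depend on that split, was 39.9 and 44.1 CPM in control and 54.1 and 47.8 CPM in the libraries labelled shFer. CXCL1 made up 78.9% to 85.5% of the summed counts in the 4 libraries. The sum was thus higher under the knockdown label in both libraries, by less between the nearest libraries (44.1 and 47.8) than between the 2 controls.

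CXCL6, which activates both receptors, averaged 2.08-fold more under the knockdown label but from few counts and without passing the test, and CXCL5, its nearest relative in sequence, was barely detected. CXCL6 had 24 and 37 counts in control and 84 and 62 under the knockdown label, or 1.17 and 1.71 against 3.70 and 2.33 CPM. The groups did not overlap, and the log2 fold change was 1.05 with a 95% interval of 0.25 to 1.85 (adjusted p = 0.174 in edgeR's quasi-likelihood test). The CXCL6 log2 fold change was 1.33 without control replicate 2 and 0.69 without shFer replicate 1, within a range of 0.69 to 1.35 over its alternatives. CXCL5 had 9 and 7 counts in control and 10 and 18 under the knockdown label (log2 fold change 0.56, 95% interval -0.75 to 1.87, adjusted p = 0.668 in edgeR). CXCL5 was at 0.21 without shFer replicate 2 and at 0.33 without control replicate 2. It passed the filter on low counts only through the group in which it was higher. The coding sequences of CXCL5 and CXCL6 are 87.5% identical, and 4.31% of the exonic bases of CXCL6 overlap PPBPP1, a pseudogene with 0 counts in every library.

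The CC chemokines showed no difference between the groups that passed the test. CCL2, the monocyte attractant, had 2604 and 2934 counts in control and 2931 and 3170 under the knockdown label, or 127 and 135 CPM against 129 and 119 CPM. The groups overlapped, and the log2 fold change was -0.08 with a 95% interval of -0.35 to 0.19 (adjusted p = 0.784 in edgeR's quasi-likelihood test), or 0.084 when scaled by library totals, which put the all-gene median at 0.18. CCL20 had 1 and 3 counts in control and 2 and 2 counts in the other group, did not pass the filter on low counts and was not tested, and a difference was not detectable at this depth.

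Of the receptor genes, CXCR1, picked for its rise, was higher under the knockdown label, and CXCR2 showed no difference that passed the test. CXCR1 had 19 and 17 counts in control and 104 and 106 counts in the libraries labelled shFer, or 0.929 and 0.784 CPM against 4.58 and 3.99 CPM. Both libraries of each group lay close together and the groups were far apart, at 0.857 ± 0.103 and 4.29 ± 0.416 CPM (SD, n = 2 each), a 4.98-fold difference (log2 2.32). Leaving out any 1 library moved the log2 value no further than 2.17 to 2.44. CXCR2 had 38 and 71 counts in control and 41 and 50 counts under the knockdown label, or 1.86 and 3.27 CPM against 1.81 and 1.88 CPM. Control replicate 2 was the high library and the other 3 lay between 1.81 and 1.88 CPM, with a log2 fold change of -0.48 and a 95% interval of -1.26 to 0.30 (adjusted p = 0.521 in edgeR's quasi-likelihood test). Without control replicate 2 the CXCR2 value was -0.03, and without control replicate 1 it was -0.83.

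CXCR1 took 33.3% of the summed counts of the receptor pair in control replicate 1 (95% Wilson interval 22.5 to 46.3) and 19.3% in control replicate 2 (12.4 to 28.8). It took 71.7% (63.9 to 78.4) and 67.9% (60.3 to 74.8) in the libraries labelled shFer. These intervals give the counting error of each library and are no test between the groups. The pair sum was 2.79 and 4.06 CPM in control and 6.38 and 5.87 CPM in the other group. The receptor coding sequences are 85.0% identical. The longest run shared by their whole transcripts, untranslated parts included, is 122 bases, which reads of either gene could match. No exon of another gene overlaps CXCR1 or CXCR2, and the pseudogene CXCR2P1 had 0 counts in every library.

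**Figure D2:**
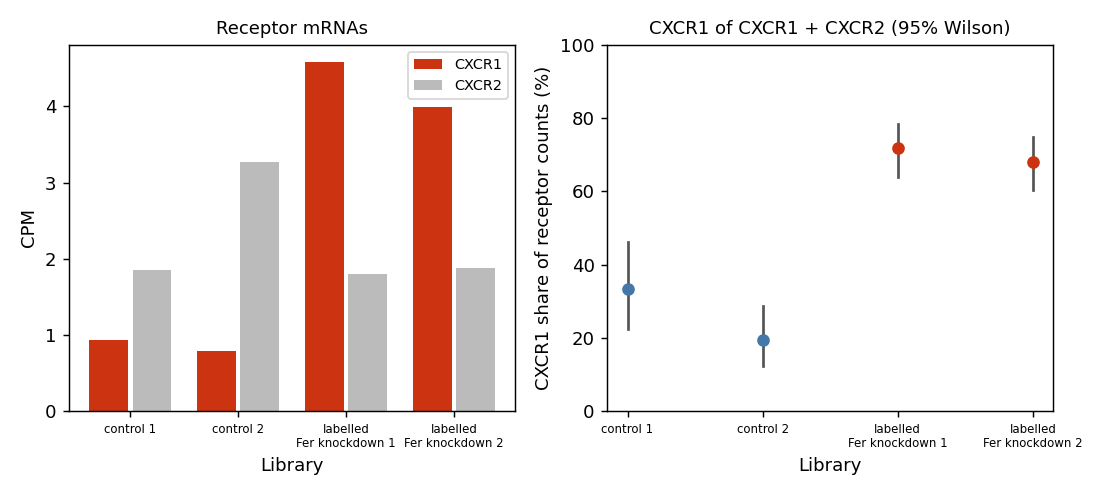
Left, CPM of CXCR1 (red) and CXCR2 (grey) in each library; right, the CXCR1 share of the summed CXCR1 and CXCR2 counts in percent, with 95% Wilson intervals for counting error only. CXCR1 is the smaller bar in both controls and the larger bar in both libraries labelled shFer, and its share goes from 33.3% and 19.3% to 71.7% and 67.9%.

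Among the 10 genes, 9 were tested and 1 was called higher, CXCR1, which had been picked for this rise, and 0 were called lower. For comparison, 0.28% of all tested genes were called higher and 0.365% lower. With CXCR1 left aside, 0 of the other 8 tested genes passed in edgeR, and 2 had an unadjusted p under 0.05 (CXCL8 and CXCL6), as did 17.7% of all tested genes. DESeq2 gave an adjusted p for only 4 of the 9 genes (CXCL8, CXCL1, CXCL2 and CCL2) and called 1 of them, CXCL8, against 4.9% of the 11892 genes to which it gave one. Both libraries labelled shFer lay above both controls for 6 of the 9 tested genes (CXCL8, CXCL1, CXCL3, CXCL5, CXCL6 and CXCR1), which was the case for 25.8% of all tested genes. With CXCR1 left aside it was 5 of 8. For CXCL5 the nearest libraries were practically level, at 0.4402 CPM in control replicate 1 and 0.4403 CPM in shFer replicate 1 (9 and 10 counts). For CXCL3 they were close, at 1.61 and 1.69 CPM. The median log2 fold change of the 9 was 0.56, that of the 8 without CXCR1 was 0.42, and that of all tested genes was 0.01. The median of the 9 was 0.30 without shFer replicate 1, 0.35 without shFer replicate 2 and 0.37 without control replicate 1. Since CXCR1 was chosen on these values and CXCL5 entered only through its higher group, this count and median are given as a description.

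**Figure D3:**
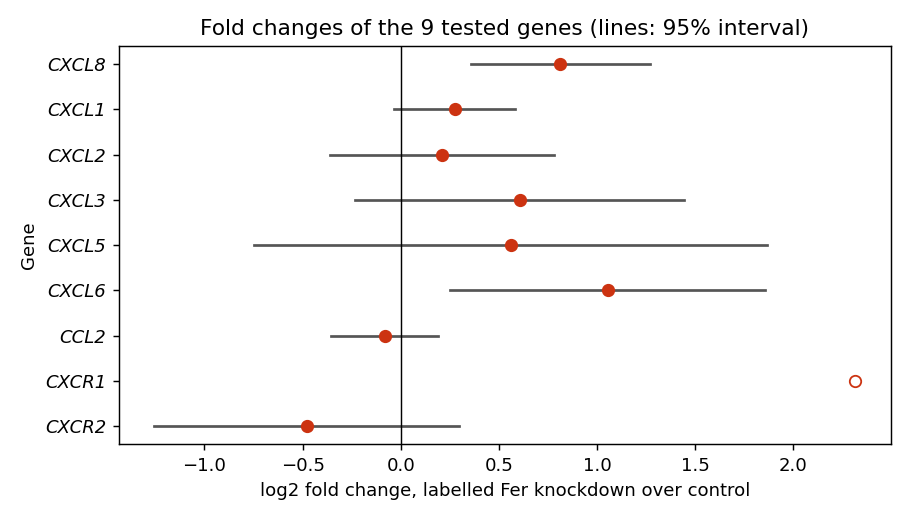
Log2 fold change of the 9 tested genes, libraries labelled shFer over control, with 95% intervals as lines. The open circle is CXCR1, shown without an interval because it was chosen for its rise; the intervals of CXCL8 (0.36 to 1.27) and CXCL6 (0.25 to 1.85) lie to the right of 0 before adjustment over all genes, and the other 6 cross it.

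The neighbours of these genes on the chromosomes had other values. Of the non-member genes between CXCL8 and CXCL2, PF4, PF4V1 and PPBP, which encode platelet chemokines, had 0 to 5 counts in a library, and 5 non-coding or pseudogene entries had 0 in all. On the far side of CXCL2, MTHFD2L, a mitochondrial folate enzyme, had 79 and 82 counts in control and 79 and 105 under the knockdown label (log2 fold change -0.04, adjusted p = 0.956 in edgeR). Beyond it lie EPGN and EREG, which encode ligands of the epidermal growth factor receptor. EPGN had 12 and 29 counts in control and 10 and 13 under the knockdown label, with both libraries labelled shFer below both controls in CPM (-1.04, 95% interval -2.29 to 0.20, adjusted p = 0.368 in edgeR). EREG was at 0.04 (adjusted p = 0.950 in edgeR). Beside CXCR1, ARPC2, an actin-nucleating Arp2/3 subunit, was at -0.48 (adjusted p = 0.0759 in edgeR), opposite in sign to CXCR1, and GPBAR1, a bile acid receptor, had 11 to 21 counts per library (-0.47, adjusted p = 0.697 in edgeR). These genes were taken by position.

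The wider chemokine system was thinly expressed. Of 36 other chemokine ligand genes, 15 had 0 counts in all libraries and 5 were tested. Of these 5, 0 were called higher and 0 lower, against 0.28% and 0.365% of all tested genes. The median log2 fold change of the 5 was 0.17, against 0.01 for all tested genes. CCL5, which attracts T cells and monocytes, had 3.42 and 2.54 CPM in control and 3.70 and 4.22 CPM under the knockdown label (log2 fold change 0.41, adjusted p = 0.463 in edgeR). CXCL11, an interferon-induced ligand of CXCR3, ranged from 8 to 31 counts with overlapping groups (0.80, adjusted p = 0.574 in edgeR), and its sign turned without shFer replicate 1 (-0.27). CCL5 was at 0.19 without control replicate 2. Without that library the list's median was -0.0021. At an unadjusted p under 0.05, 0 of the 5 passed, against 17.7% of all tested genes. DESeq2 called 0 of the 3 to which it gave an adjusted p, against 4.9%.

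Of 21 other chemokine receptor genes, 5 had 0 counts in all libraries and 8 were tested. Against 0.28% and 0.365% of all tested genes, 0 of the 8 receptors were called higher and 0 lower. Their median log2 fold change was -0.63, and 7 of the 8 values were below 0, as were 48.1% of all tested genes. The median was -0.47 with library totals alone, -0.36 without shFer replicate 1 and -0.18 without shFer replicate 2. ACKR3, a scavenging receptor for CXCL12, had 4.79 and 5.58 CPM in control and 2.69 and 3.77 CPM under the knockdown label (log2 fold change -0.68, adjusted p = 0.211 in edgeR). CCRL2, an atypical receptor that presents chemerin, had 2.15 and 1.80 against 1.06 and 1.13 CPM (-0.85, adjusted p = 0.261 in edgeR). In both genes the 2 libraries labelled shFer were below both controls, as for 23.4% of all tested genes, and these 2 receptors were the ones with an unadjusted p under 0.05, against 17.7% of all genes. DESeq2 gave an adjusted p for 1 of the 8, ACKR3, and did not call it. CCR2, the CCL2 receptor, and CCR6, the CCL20 receptor, had 0 counts in every library.

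Of the 20 genes listed for signalling from CXCR1 and CXCR2, 19 were expressed enough to be tested. In either direction 0 of the 19 were called, against 0.646% of all tested genes (median log2 fold change -0.07, or 0.09 with library totals alone). An unadjusted p under 0.05 was found for 5, against 17.7% of all genes. DESeq2 called 2, RAC2 and GNAI2, against 4.9%. RAC2, a small GTPase of the neutrophil oxidase and cytoskeleton, had 135 and 121 CPM in control and 86.6 and 85.7 CPM under the knockdown label. Its log2 fold change was -0.57 (adjusted p = 0.0708 in edgeR), and it passed in DESeq2 (0.0054). GNAI2, the inhibitory G protein subunit through which chemokine receptors signal, had 730 and 703 against 545 and 549 CPM (-0.39, adjusted p = 0.116 in edgeR). In both genes the 2 libraries labelled shFer lay below both controls. That held for 7 of the 19 tested genes of the list, against 23.4% of all tested genes. The reverse held for 1 of the 19, against 25.8%. PIK3CG, the phosphoinositide kinase that these receptors engage in leukocytes, had 0 counts in every library.

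Of the cytokines, receptors and adaptors that induce CXCL8, 0 of 19 tested were called, against 0.646% of all tested genes (median log2 fold change -0.12, or 0.05 with library totals alone). An unadjusted p under 0.05 was found for 2, against 17.7% of all genes. DESeq2 called 0 of 17 given an adjusted p, against 4.9%. The inducer TNF had 0 counts in every library. IL1A and IL1B, chosen here as the interleukin-1 genes of the list after their values were seen, had 5.97 and 5.81 against 6.16 and 7.27 CPM, and 20.2 and 26.8 against 24.1 and 22.2 CPM. Their groups overlapped for IL1B and differed little for IL1A (log2 fold changes -0.02 and 0.19, adjusted p = 0.964 and 0.678 in edgeR). MYD88, the adaptor of interleukin-1 and Toll-like receptors, had 46.2 and 49.9 CPM in control and 35.1 and 34.3 CPM under the knockdown label (-0.47, adjusted p = 0.120 in edgeR). TRAF3IP2, the adaptor of the interleukin-17 receptor, was at -0.36 (adjusted p = 0.230 in edgeR).

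Of 21 transcription factors and NF-kB inhibitors, 0 were called higher and 1 lower, against 0.365% of all tested genes called lower, and 8 had an unadjusted p under 0.05, against 17.7% of all genes (median log2 fold change 0.01, or -0.03 without control replicate 1). DESeq2 called 3 of 20 (FOSL1, RELA and ATF3), against 4.9%. The called gene was FOSL1, an AP-1 subunit, which fell from 206 and 233 CPM in control to 139 and 126 CPM. Its log2 fold change was -0.73 ± 0.13 (SE, adjusted p = 0.0379 in edgeR's quasi-likelihood test). The FOSL1 call was lost without replicate 1 (adjusted p = 0.247) or replicate 2 (0.655) of the libraries labelled shFer. The NF-kB subunit RELA, chosen after its values were seen, was at -0.48 (adjusted p = 0.0924 in edgeR), and TNFAIP3, an NF-kB target and inhibitor also chosen then, was at 0.60 (adjusted p = 0.108 in edgeR). Of 15 mRNA stability factors, 0 were called, against 0.646% of all tested genes (median -0.04, or 0.13 with library totals alone). An unadjusted p under 0.05 was found for 3, against 17.7% of all genes, and DESeq2 called 0 of the 15, against 4.9%. MAPK14, the stress kinase p38 alpha that stabilises AU-rich mRNAs, had 41.2 and 43.1 against 53.2 and 56.4 CPM (0.38, adjusted p = 0.179 in edgeR). ZFP36, tristetraprolin, which destabilises them, had 78.6 and 141 against 65.7 and 81.2 CPM, with overlapping groups (-0.58, adjusted p = 0.239 in edgeR, and -0.12 without control replicate 2).

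**Figure D4:**
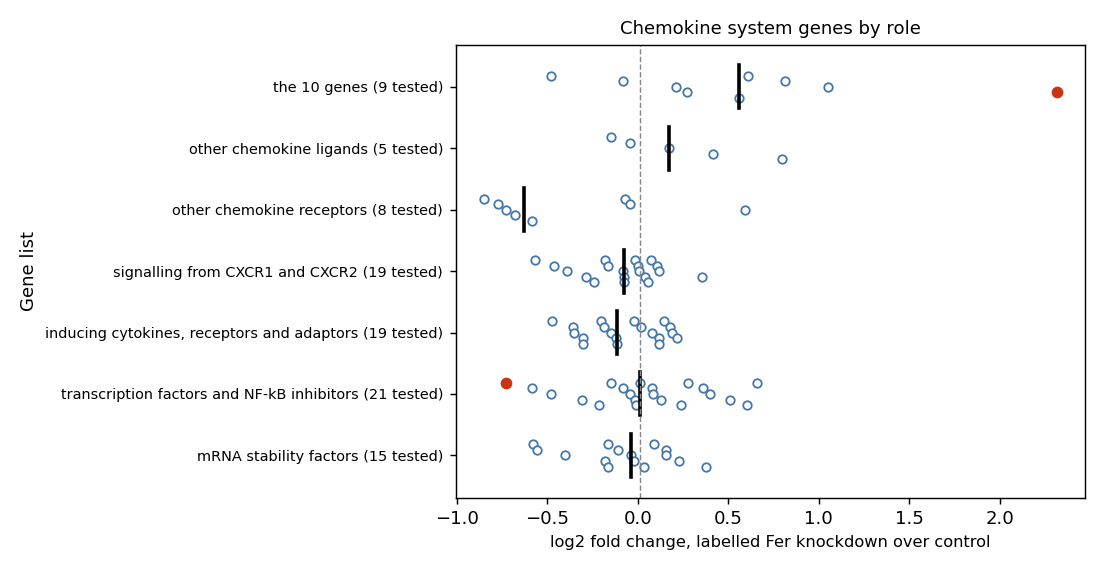
Log2 fold change of each tested gene, libraries labelled shFer over control, by list, with filled red circles for an adjusted p under 0.05, black bars for list medians and a dashed line for the median of all tested genes. CXCR1 (2.32), which was picked for its rise, and FOSL1 (-0.73) are the called genes, and 7 of the 8 other chemokine receptors lie left of 0.

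The genes whose pattern over the 4 libraries was nearest that of CXCL8, by Euclidean distance of centred log2 CPM among 10887 genes with a mean of at least 5 CPM, were CPOX, ATF3, GAS1, CICP14 and TFRC. Their distances ran from 0.143 to 0.237. CPOX, a heme synthesis enzyme, had 182 and 275 counts in control and 367 and 499 under the knockdown label. ATF3, a stress-induced transcription factor, had 970 and 1567 against 1970 and 2718 counts. In each of the 5 genes, as in CXCL8, control replicate 1 was the lowest library and replicate 2 of the libraries labelled shFer the highest. With only 4 libraries this likeness is a description of order and spacing.

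Markers of each cell type were read as whole lists. In edgeR 0 of their genes were called, against 0.646% of all tested genes. An unadjusted p under 0.05 was found for 3 of 9 tested epithelial and 2 of 5 leukocyte genes. The counts were 2 of 3 for fibroblast and 0 of 2 for endothelial genes, against 17.7% of all genes. DESeq2 called 1 epithelial and 1 fibroblast gene (KRT17 and COL1A1), against 4.9%, and their part in the results was not tested. Of the epithelial markers, those that define the type are given: the simple-epithelium keratin KRT8 ran from 1602 to 2094 CPM, CDH1 from 7.33 to 10.5 CPM and EPCAM from 2.74 to 4.97 CPM. The airway basal keratin KRT5 had 3 to 12 counts. KRT17, a keratin of basal and injured epithelium, was at 0.77 (adjusted p = 0.0552 in edgeR). KRT7, a simple-epithelium keratin, had a value of the other sign, with 309 and 248 CPM in control and 211 and 212 CPM under the knockdown label (-0.40, adjusted p = 0.169 in edgeR). Because CXCR1 and CXCR2 mark neutrophils, leukocyte markers were read beside them. Of 20 such genes, 7 to 10 had 0 counts in a library, and the defining neutrophil genes FCGR3B and S100A12 had 0 in all, with CSF3R, S100A8 and MPO at no more than 6 counts and the pan-leukocyte gene PTPRC at 0 to 6. ITGAM, the myeloid integrin chain, was present at 69 and 113 counts in control and 144 and 123 under the knockdown label, with overlapping groups (log2 fold change 0.35, adjusted p = 0.562 in edgeR), and SPI1, a myeloid transcription factor, at 16 to 29 counts. The summed level of the list was 27.9 to 34.8 CPM in control and 26.6 to 26.7 CPM under the knockdown label, most of it from CD14. ITGB2, the leukocyte integrin chain, had 7 and 6 counts in control and 23 and 16 under the knockdown label (log2 fold change 1.36, adjusted p = 0.264 in edgeR) and passed the filter only through its higher group. CPA3, a mast cell protease, was at -1.24 (adjusted p = 0.111 in edgeR). Of 7 fibroblast genes, 2 (DCN and LUM) had 0 counts in all libraries, and the list summed to 106 and 117 CPM in control and to 92.6 and 89.9 CPM in the other group. Most of it came from the collagen gene COL1A1, with 76.9 and 81.2 against 56.7 and 58.02 CPM (-0.46, adjusted p = 0.112 in edgeR), while the collagen gene COL3A1 had 10 and 5 against 26 and 20 counts (1.39, adjusted p = 0.248 in edgeR). The 4 endothelial genes found in the table summed to 1.89 to 2.98 CPM in all 4 libraries. VWF, which encodes von Willebrand factor, was at -0.53 and CDH5, an endothelial cadherin gene, at -0.30 (adjusted p = 0.754 and 0.789 in edgeR). Their signs turned, to 0.88 without control replicate 1 and to 0.16 without shFer replicate 1.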

How the data were processed

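Polyadenylated RNA of 4 BEAS-2B libraries was sequenced. The authors deposited raw read counts per gene with a length column, per the file headers; HISAT2, featureCounts and DESeq2 and the builds hg19 and mm10 are named in the submitters' processing notes without versions or roles, with strand setting and annotation release not given in the sources used here. Only an abbreviated header names the first knockdown column, which was matched through its replicate number. Of 39635 rows, 1 without values was left out. The 10 genes and the gene lists were chosen with earlier results of these data known.

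The test was run in R 4.3.3 on the counts with edgeR 4.0.16, using filterByExpr (about 10 counts in 2 libraries, 15336 genes kept), TMM scaling, and a two-sided quasi-likelihood test without a block on 2 residual degrees of freedom. Benjamini-Hochberg adjustment covered every tested gene, with calls at an adjusted p under 0.05. CPM are on the TMM scale. Named genes were the 10 genes, FER and, of each other list, up to 4 called genes or otherwise the 2 with the smallest p; others were taken by position, as defining markers, or after their values were seen (genes at 0 counts among them). Chromosomes, exon overlaps and transcripts came from GENCODE release 29, whose build differs from hg19, so gene coordinates are not given. Alternatives were other scalings and filters, DESeq2 1.42.0, a replicate block, each library left out in turn and, added after seeing the data, the mitochondrial chromosome left out. The steps were tested on simulated data.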

Additional observations from a re-analysis of the deposited data

How the results depend on the processing

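The count of called genes, 99, was 443 with library totals alone, 993 with no filter on low counts, 583 in DESeq2, and 56 to 4734 with 1 library left out. Of the 10 genes, 1 was called in edgeR, against 2 with library totals alone (CXCL8 and CXCR1), 3 with no filter on low counts (CXCL6 as well), 0 with a filter of 5 CPM in 2 libraries, which removes CXCR1, and 1 to 3 with a library left out. Such a fit leaves 1 sample in an arm, whose variation is taken to equal that of the intact arm. The calls of CXCR1 in these counts are a description, because it was picked for its rise.

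With the replicate number as a block, 990 genes and 2 of the 10 passed (CXCL8, adjusted p = 0.000264 in edgeR, and CXCR1, which was picked for its rise). The labels do not say that numbers pair the libraries. The deviations of same-numbered libraries from their group means correlated at 0.0373 over genes. With 2 libraries per group, this value cannot show whether same-numbered libraries share a culture or batch.

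FER ran from -0.16 without control replicate 1 and -0.08 without replicate 2 of the libraries labelled shFer to 0.19 without control replicate 2. CXCL2 ran from -0.11 to 0.60 with a library left out, and CCL2 turned to 0.084 with library totals alone. CXCL8, CXCL1, CXCL3, CXCL6 and CXCR2 kept their sign in every alternative that could be fitted for them. CXCR1 and CXCL5 did so too, which is a description only. CXCR1 was picked for its rise, and CXCL5 passed the filter on low counts only through its higher group. Leaving out the mitochondrial chromosome put CXCL8 at 0.81 (adjusted p = 0.0840 in edgeR) and CXCR1 at 2.31. The causes of these differences were not tested. CXCL5, CCL20 and the control level of CXCR1 rest on fewer than 20 counts per library, which limits their precision.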

Other observations

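Some listed genes differed widely between the 2 control libraries, and the examples here were chosen after their values were seen. FOS, the AP-1 subunit, had 59.9 CPM in control replicate 1 and 202 CPM in control replicate 2, with 110 and 150 CPM in the libraries labelled shFer between them. DUSP1, a phosphatase that turns off p38, had 82.0 and 214 CPM in control and 131 and 184 CPM in the other group. Other genes of the same list as FOS were close between the controls, such as JUNB at 79.0 and 82.6 CPM and CEBPB at 99.7 and 96.8 CPM. ZFP36L1, a relative of tristetraprolin, had 246 and 476 CPM in control and 234 and 256 CPM in the other group. CXCL8, CXCL2 and CXCR2 were also higher in control replicate 2 than in control replicate 1 (18.6 against 12.6, 7.70 against 4.65 and 3.27 against 1.86 CPM). So were CXCL3 (1.61 against 1.12 CPM), CXCL6 (1.71 against 1.17), CXCL1 (34.8 against 34.1) and CCL2 (135 against 127). CXCR1 (0.784 against 0.929 CPM) and CXCL5 (0.323 against 0.440 CPM) were lower there.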
